A study of Homo sapiens with 24 samples.

Results

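Transcript levels of HepaRG cells 48 h after replating were compared with those at 0 h. The comparison took the 3 arrays labelled 48h and the 3 labelled 0h, 6 of the 24 arrays of the series, with all 22215 probe sets that are not controls. HepaRG is a human line from a liver tumour whose cells become hepatocyte-like or biliary-like when kept confluent in DMSO. Both groups came from cultures grown for 2 weeks in medium with serum, insulin and hydrocortisone and for 2 more weeks with DMSO added. The hepatocyte-like cells had then been detached by gentle trypsin treatment and seeded sparsely to induce reprogramming, and the 0 h cells were those collected at the start of that course. All arrays come from a single cell line, and the labels number the replicates without saying whether they were separate cultures. The p-values therefore reflect the spread among the 24 arrays of this series alone, and that spread may be technical. Which medium, DMSO and hydrocortisone the replated cells had is not given in the sources used here.

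Mature hepatocytes make most plasma proteins, clear drugs and ammonia, store and release glucose and export bile acids, and they rarely divide. These functions are kept up by a network of transcription factors, among them the HNF, FOXA and C/EBP families and several nuclear receptors. When hepatocytes lose contact with their neighbours and attach to a stiff surface, they are known to lose these transcripts, to build actin stress fibres and, with growth factors, to enter the cell cycle.

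Signals were read on a linear scale and tested as log2(signal + 18.04), which makes the changes of dim genes look smaller than they are. A gene counted as risen or fallen when its difference reached 2-fold with an adjusted p under 0.05. The SE and the adjusted p come from limma fitted to all 24 arrays, so their spread is pooled over all times. Benjamini-Hochberg adjustment was over 9966 genes, each represented by its brightest tested probe set. The median array signal at 0 h was 135.2 ± 6.10, and at 48 h it was 109.9 ± 4.08 (SD, n = 3). The ratio of 3' to 5' signal of the ACTB control probe sets, which is higher for degraded RNA, was 2.03, 6.91 and 2.56 on the 0 h arrays and between 1.02 and 1.27 on the 48 h arrays. All 3 values at 0 h lay above those at 48 h, and 0 h replicate 2 stood apart. The same ratio for GAPDH was 1.38 ± 0.468 for the 0 h arrays and 0.916 ± 0.0175 for the 48 h arrays (SD, n = 3). For all 3 measures a two-sided exact permutation test gave p = 0.1, and 3 arrays against 3 cannot go lower. RNA integrity and time therefore cannot be told apart, and counts without 0 h replicate 2 stand beside the main gene groups.

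Of the 9966 genes, 979 (9.82%) had risen and 1170 (11.7%) had fallen at 48 h, together 21.6%. Counts in the gene lists below are to be read against these shares. Over all 22215 probe sets 1548 (6.97%) had risen and 1968 (8.86%) had fallen. Changes reached 4-fold for 226 rises and 309 falls and 16-fold for 13 rises and 36 falls, so the largest differences were mostly losses. The 3 values at 48 h all lay above the 3 values at 0 h for 2261 genes (22.7%) and all below them for 2643 (26.5%). The median log2 change of all genes was -0.12, and single changes are best read against that value. Which direction prevailed depended on scaling. Of the called genes 45.6% had risen here, 53% with quantile normalization and 65.9% (1504 rises and 777 falls) with each array centred on its median. Without 0 h replicate 2, 964 genes had risen and 1034 had fallen.

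**Figure D1:**
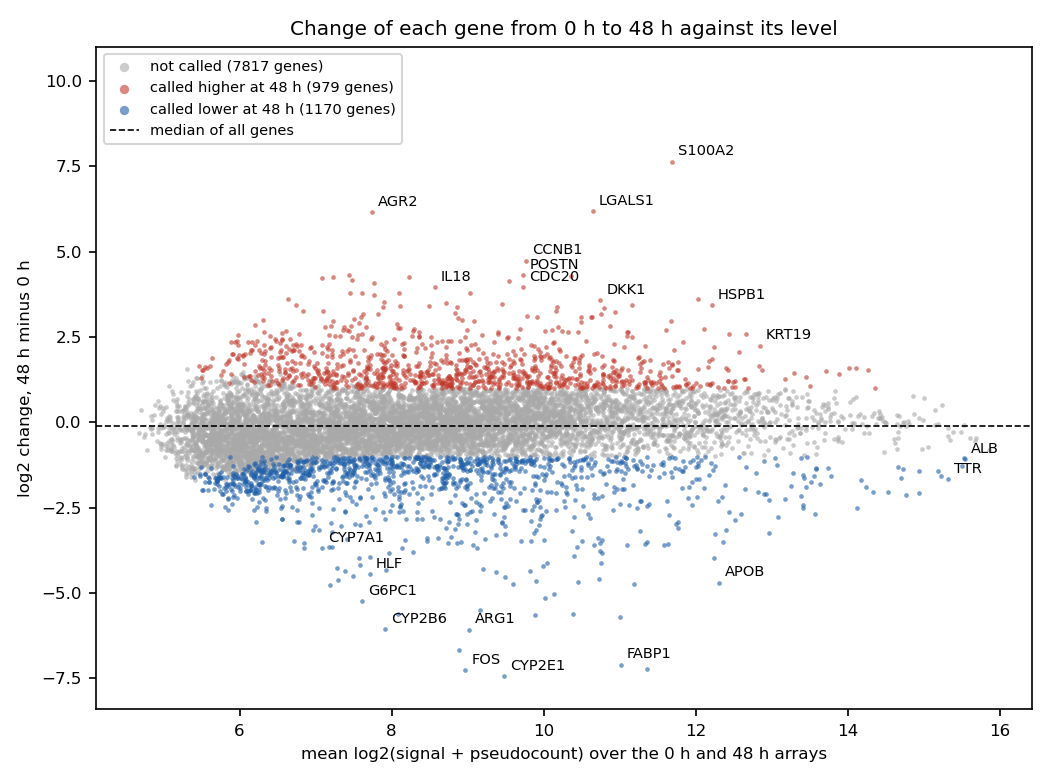
Log2 change from 0 h to 48 h of each of the 9966 genes (vertical axis) against its mean log2(signal + pseudocount) over the 6 arrays (horizontal axis). Red points are the 979 genes called higher, blue points the 1170 called lower, grey points those not called, and the dashed line is the median of all genes, -0.12. The labelled liver genes reach down to -7.43 for CYP2E1, and S100A2 stands highest at 7.64.

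The replated cells lost transcripts of the liver across almost every function listed. The lists of liver identity and liver metabolism hold 323 measured genes, of which 216 (66.9%) fell and 4 rose, with a median log2 change of -1.64. In a bulk sample, fewer cells of a type and less RNA per cell cannot be told apart. The hepatocyte markers checked the label of the cells. Of 9 measured, among them ALB, TTR, APOB and CPS1, all 9 lay above the 60th percentile of every array at 0 h, and 7 still did at 48 h. The summed signal of these 9 ran from 362352 to 399890 at 0 h and from 120863 to 135242 at 48 h. HNF4A, also chosen as a hepatocyte marker, was not among the genes tested.

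Secreted plasma proteins fell widely but to very different depths. Of 28 albumin and carrier protein genes 25 fell and 1 rose (median -1.85), against 11.7% and 9.82% of all genes. ALB, the main protein of plasma, had signals of 59332, 77526 and 71484 on the 0 h arrays and 31808, 33124 and 33985 on the 48 h arrays. The groups did not overlap, but its log2 change of -1.07 ± 0.14 (SE, adjusted p = 1.7e-07) was among the smallest falls of this list. Its other probe sets gave -3.56 and 0.01, so the size of its change is uncertain, and its change no longer reached 2-fold with quantile normalization (-0.66), with median centring (-0.81) or without 0 h replicate 2 (-0.98). TTR, which carries thyroid hormone and retinol-binding protein, had signals of 68852, 76366 and 73896 on the 0 h arrays and 21830.4, 24056 and 22987 on the 48 h arrays, a log2 change of -1.67 ± 0.12. Both bright carriers thus kept a strong signal at 48 h. SERPINA1, the protease inhibitor alpha-1-antitrypsin, went from 68316 ± 8011 to 33240.5 ± 2730.4 (SD, n = 3; log2 change -1.04 ± 0.15 (SE, adjusted p = 1.1e-06)), a call lost in 6 of 18 other settings, with -0.66 under quantile normalization and -0.77 with median centring. ITIH4, an inter-alpha-trypsin inhibitor chain, went from 6611 ± 920.0 to 457 ± 138 (SD, n = 3) and HRG, a histidine-rich plasma glycoprotein, changed by -3.47 ± 0.13 on the log2 scale. TTPA, the tocopherol transfer protein, had a log2 change of -3.02 ± 0.33. The member that rose was AFP, the fetal counterpart of albumin, from 171 ± 28.4 to 359 ± 22.3 (SD, n = 3; log2 change 1.01 ± 0.28 (SE, adjusted p = 0.0037)). All 3 of its values at 48 h lay above those at 0 h, but its call was lost with the larger pseudocount (0.83), without 0 h replicate 1 (0.93) or 2 (0.96) and without 48 h replicate 1 (0.96).

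Clotting and complement genes fell in most cases. Of 25 coagulation and fibrinolysis genes 18 fell and 3 rose (median -2.39). SERPIND1, heparin cofactor II, had signals of 3828, 4151 and 5160.4 on the 0 h arrays and 183, 183 and 311 on the 48 h arrays. All 48 h values lay far below the 0 h values (log2 change -4.20 ± 0.18 (SE, adjusted p = 5.1e-19)). F9, the clotting factor missing in hemophilia B, went from 6305 ± 169 to 455 ± 93.8, F12, which starts the contact pathway, from 7574 ± 379 to 619.7 ± 111, and SERPINC1, antithrombin, from 17771 ± 1779 to 1540.3 ± 113 (SD, n = 3). FGB, a fibrinogen chain, fell less, with a log2 change of -1.38 ± 0.13. The 3 members that rose do not encode liver clotting factors. F3 encodes tissue factor, the cell-surface trigger of clotting (log2 change 2.25 ± 0.23), TFPI2 a matrix-bound protease inhibitor (1.90 ± 0.15) and PLAUR the urokinase receptor (1.65 ± 0.29). Of 25 complement genes 19 fell and none rose (median -2.09), but 1 rose without 0 h replicate 1 or 3 or 48 h replicate 3. C5, the source of the anaphylatoxin C5a, went from 5488 ± 886 to 506 ± 115 and C8A, a subunit of the membrane attack complex, from 1120.3 ± 33 to 100.3 ± 51.4 (SD, n = 3). CFHR4, another factor H relative, had a log2 change of -3.16 ± 0.40. CFHR2, of the same family, had a log2 change of -4.59 ± 0.17, from an _x_at probe set. Such probe sets can bind similar transcripts, so genes read by them are uncertain.

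Acute phase proteins and apolipoproteins fell as well. Of 13 acute phase and iron-binding genes 7 fell and none rose (median -1.10), with HP, haptoglobin, at -1.43 ± 0.14, LBP, which binds bacterial lipopolysaccharide, at -1.59 ± 0.16 and CRP at -2.19 ± 0.26 on the log2 scale. FGL1, a liver-secreted fibrinogen relative, changed by -1.55 ± 0.20. Of 16 apolipoprotein and lipoprotein assembly genes 12 fell (median -1.81). APOB, the backbone of LDL and VLDL, had signals of 22759.5, 31821 and 23749 on the 0 h arrays and 919, 788 and 1288 on the 48 h arrays. Its groups were far apart (log2 change -4.70 ± 0.19 (SE, adjusted p = 1.9e-19)). MTTP, which loads lipid onto APOB, went from 3017 ± 75.9 to 263 ± 76.9 (SD, n = 3). APOA2 changed by -3.23 ± 0.17 and APOA1, the main protein of HDL and read by an _x_at probe set, by -2.50 ± 0.12. Without 0 h replicate 2 the falls numbered 24 carriers, 17 coagulation genes, 19 complement genes, 7 acute phase genes and 12 apolipoprotein genes.

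Enzymes of drug oxidation had the lowest median of the 43 gene lists. The list holds 20 measured cytochrome P450 enzymes and 5 other members, their electron donors POR and CYB5A, the monooxygenases FMO4 and FMO5 and the oxidase AOX1. Of these 25 genes 23 fell (92.0%), 18 P450 enzymes and the 5 others, and none rose, with a median log2 change of -2.59. CYP2E1, which oxidizes ethanol and paracetamol, had signals of 8670.4, 9828 and 9547 on the 0 h arrays and 8.89, 35.7 and 92.1 on the 48 h arrays. It was the largest fall of all genes, -7.43 ± 0.24 (SE, adjusted p = 8.7e-22), and its other probe sets gave -6.20 and -6.47. CYP2B6, an enzyme induced by the receptor CAR, had signals of 1768, 2284 and 1821 on the 0 h arrays and 9.68, 12.4 and 12 on the 48 h arrays, a log2 change of -6.06 ± 0.21, although its other probe set gave -1.43. CYP2A6, which clears nicotine, went from 3941 ± 927 to 69.9 ± 24.1 (SD, n = 3), with -5.92, -4.88 and -5.22 by its other probe sets. CYP3A4, the main drug oxidase of adult liver, went from 32306 ± 2673 to 207 ± 88.6 (SD, n = 3; log2 change -7.23 ± 0.20), and CYP4F2, a fatty acid hydroxylase, from 9392 ± 854 to 173 ± 4.14. Both were read by _x_at probe sets and have near-identical relatives, as does the readthrough gene CYP3A7-CYP3A51P at -5.64 ± 0.21. With such probe sets left out, CYP3A4 was read by a dimmer set with a change of -1.28 and adjusted p = 0.14 in limma.

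Promoter sequences of this group are shown because its genes fell together. RefSeq promoters (GRCh38.p14, 250 bases before to 50 after each start) matched 8116 of the 9966 genes. The letters AAAGTCC, a short form of the direct repeat bound by HNF4, were searched on both strands, as were GTTAAT, part of an HNF1 site, and TATAAA, the TATA box. Each motif was searched separately, so matches may overlap. The HNF4 letters were found in 8 of 20 promoters of the drug oxidation list (40%), 6 of 16 P450 promoters and those of CYB5A and AOX1, in 3.30% of all genes tested, in 5.27% of those that fell and in 1.97% of those that rose. The 8 genes with it had a median log2 change of -4.50 and the 12 without it -2.81, a difference that was not tested. Several of the 8, such as CYP2A6, CYP2A7 and CYP2B6, are neighbours of similar sequence, so these promoters are not independent. Over all 27305 promoters of the table AAAGTCC was in 3.73%, GTTAAT in 6.89% and TATAAA in 12%. TATAAA was in 50.0% of the promoters of the list and 7.08% of all genes tested. The stretches printed are chr19:40850448-40850547 on the minus strand for CYP2A6, chr19:40991042-40991141 on the plus strand for CYP2B6 and chr2:88128063-88128192 on the minus strand for FABP1, a liver fatty acid carrier described below. Capitals mark AAAGTCC or its reverse complement and TATAAA in the CYP2A6 stretch, the reverse complement of AAAGTCC in CYP2B6, and GTTAAT and TATAAA in FABP1.
CYP2A6: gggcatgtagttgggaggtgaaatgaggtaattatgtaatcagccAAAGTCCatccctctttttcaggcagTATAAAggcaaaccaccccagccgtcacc
CYP2B6: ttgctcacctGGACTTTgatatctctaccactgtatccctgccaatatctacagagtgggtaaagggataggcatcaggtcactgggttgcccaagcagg
FABP1: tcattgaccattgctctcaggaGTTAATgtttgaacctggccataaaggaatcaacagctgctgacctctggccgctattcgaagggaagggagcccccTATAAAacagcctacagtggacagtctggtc
Counted from the start of transcription, the HNF4 letters begin at -55 and the TATA box at -29 in CYP2A6, the HNF4 letters at -230 in CYP2B6, and the HNF1 letters at -108 and the TATA box at -31 in FABP1. GTTAAT stood in 27.3% of the promoters of the carrier protein list and in 27.3% of those of the coagulation list, against 4.08% of all genes tested and 6.11% of those that fell. In the other lists of liver function it ran from 0% for acute phase genes to 20% for the drug oxidation list, with 7.41% for the fatty acid oxidation list that holds FABP1. Median GC content was 53.2% for the carrier, 50.3% for the coagulation and 53.5% for the drug oxidation promoters. For all genes tested it was 64.7%. Whether base composition accounts for the shares of these letters was not tested. A match of letters is a description and does not show that a factor binds there.

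Conjugating enzymes and bile acid genes fell in most cases. Of 38 conjugating and detoxifying enzymes 24 fell and none rose (median -1.47). GLYAT, which joins glycine to acyl groups in mitochondria, had signals of 4292, 4737 and 5366 on the 0 h arrays and 32.6, 55.8 and 9.55 on the 48 h arrays. Its groups did not overlap, and its log2 change was -6.68 ± 0.29 (SE, adjusted p = 8e-19). ADH1B, an alcohol dehydrogenase, went from 14857 ± 1291 to 293 ± 162, SULT2A1, which sulfates steroids and bile acids, from 6446 ± 555 to 182 ± 42.9, and ADH6 from 3475 ± 593 to 136 ± 44 (SD, n = 3). Of 23 genes of bile acid synthesis and hepatic transport 16 fell and none rose (median -1.98), but 1 rose without 0 h replicate 3. CYP7A1, which starts bile acid synthesis from cholesterol, had signals of 514, 428 and 468 on the 0 h arrays and 17.2, 8.39 and 39 on the 48 h arrays, a change of -3.69 ± 0.48. SLC10A1, the sodium-dependent bile acid importer, went from 1159 ± 101 to 88.7 ± 12.6, SLC22A7, an organic anion transporter, from 852 ± 141 to 28.1 ± 36.6, and ABCG5, a sterol exporter, from 259.6 ± 101 to 5.41 ± 2.10 (SD, n = 3). ABCB11, the bile salt export pump, was dim with overlapping groups, 19.8, 13.7 and 69.8 on the 0 h arrays and 11, 78.7 and 10.9 on the 48 h arrays, and its log2 change of -0.13 ± 0.64 was not called.

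Enzymes of nitrogen, sugar and fat handling were lower at 48 h. Of 36 urea cycle and amino acid breakdown genes 23 fell and none rose (median -1.62). ARG1, which releases urea, had signals of 4130.4, 3663 and 4978 on the 0 h arrays and 51.2, 62.4 and 27.2 on the 48 h arrays. CPS1, the entry enzyme of the urea cycle, had signals of 2287, 2857 and 2674 on the 0 h arrays and 55.4, 152 and 170.2 on the 48 h arrays. Neither overlapped, and their log2 changes were -6.07 ± 0.27 and -4.30 ± 0.26. GNMT, which disposes of excess methyl groups, went from 1917 ± 442 to 22.7 ± 16.3 and AGXT, which removes glyoxylate, from 6205 ± 1027 to 162 ± 59.1 (SD, n = 3). Of 17 genes of gluconeogenesis, glycogen and fructose handling 13 fell (median -1.90). G6PC1, the catalytic subunit that frees glucose for export, had signals of 1214, 1153 and 1169 on the 0 h arrays and 22.5, 21.7 and 1.74 on the 48 h arrays, a log2 change of -5.24 ± 0.38 (SE, adjusted p = 4.1e-13). PCK1, the cytosolic enzyme that commits carbon to glucose, went from 753 ± 144 to 10.9 ± 8.51, its mitochondrial counterpart PCK2 from 5879 ± 730.4 to 494 ± 126, and the fructose kinase KHK from 2768 ± 121 to 335 ± 70.1 (SD, n = 3). The other probe set of KHK gave -0.94.

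Of 33 genes of fatty acid oxidation, ketone bodies and peroxisomes 20 fell and none rose (median -1.13). FABP1 had signals of 23332, 21688 and 28014 on the 0 h arrays and 115, 125 and 274 on the 48 h arrays. It fell from among the brightest genes to a signal near the array median (log2 change -7.10 ± 0.20 (SE, adjusted p = 8e-24)). BDH1, a ketone body enzyme, went from 743 ± 97.7 to 22.9 ± 23.4, and the peroxisomal oxidases PIPOX from 4109 ± 677 to 187 ± 48.7 and HAO1 from 4859 ± 379 to 428 ± 119 (SD, n = 3). Cholesterol and fatty acid synthesis was split, with 13 of 28 genes lower and none higher (median -0.94). TM7SF2 and SC5D, enzymes of late cholesterol synthesis, changed by -2.95 ± 0.17 and -2.62 ± 0.15, and ACACB and FASN, enzymes of fatty acid synthesis, by -2.67 ± 0.22 and -2.34 ± 0.25 on the log2 scale. The other probe set of FASN gave -0.58. Without 0 h replicate 2 the falls numbered 23 drug oxidation genes, 24 conjugating enzymes, 16 bile acid genes, 23 urea and amino acid genes, 12 gluconeogenesis genes, 19 fatty acid oxidation genes and 13 sterol and lipid genes.

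Not all metabolic transcripts were lower. None of 55 nuclear-encoded subunits of the mitochondrial respiratory chain changed past the thresholds, with log2 changes from -0.90 to 0.66 and a median of -0.23. None of 44 cytosolic ribosomal proteins did either, with changes from -0.65 to 0.93 and a median of 0.12. With median centring the medians were 0.03 and 0.38, and 2 ribosomal proteins were called higher, as was 1 without 0 h replicate 3. The median of the respiratory chain was -0.13 without 0 h replicate 3.

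**Figure D2:**
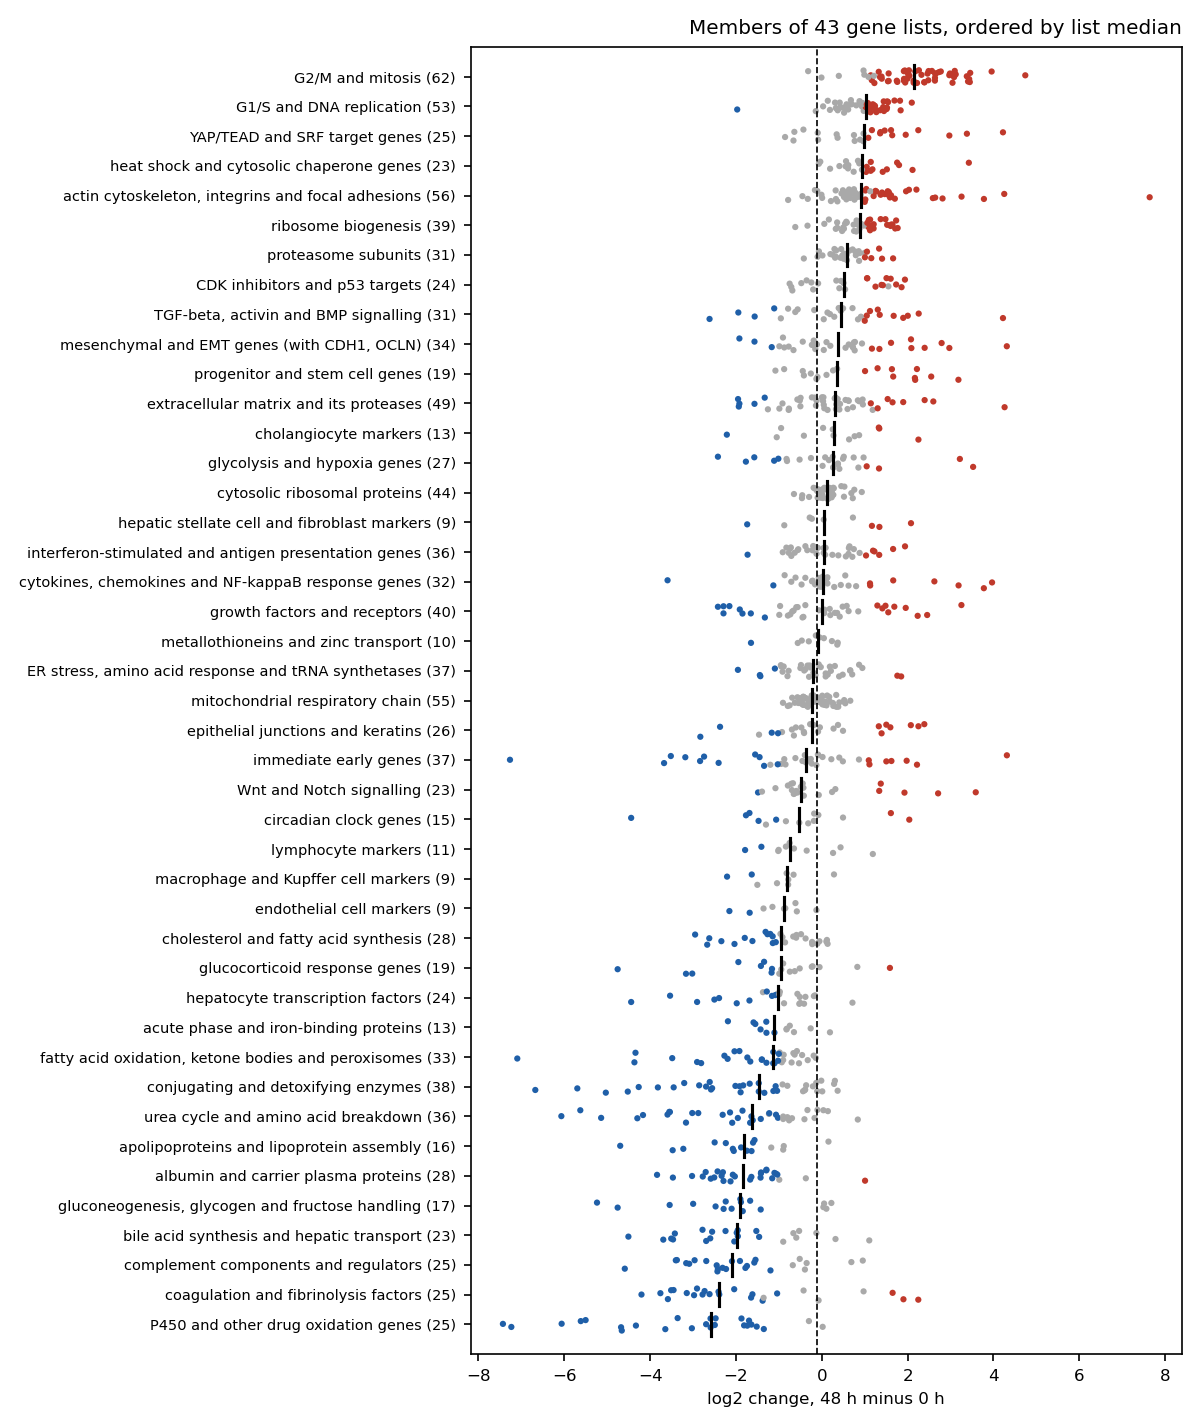
Log2 change from 0 h to 48 h (horizontal axis) of every measured member of 43 gene lists, ordered by list median, with the number of measured members in brackets. Each point is a gene, red if called higher, blue if called lower and grey if not called. Black ticks are list medians and the dashed line is the median of all genes, -0.12. The list of P450 and other drug oxidation genes has the lowest median, -2.59, and the G2/M and mitosis list the highest, 2.14.

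Transcription factors of hepatocytes fell in part. Of 24 measured, 10 fell and none rose (median -1.01), also 10 without 0 h replicate 2. HLF, a bZIP factor of liver with a circadian rhythm, had signals of 1042, 988 and 862 on the 0 h arrays and 46.6, 43.4 and 5.00 on the 48 h arrays. NR1I3, the drug-sensing nuclear receptor CAR, had signals of 336, 355 and 445 on the 0 h arrays and 29.6, 2.25 and 22.5 on the 48 h arrays. CEBPA, which holds hepatocytes in the differentiated state, had signals of 589, 629 and 658 on the 0 h arrays and 70.3, 115 and 138 on the 48 h arrays. In all 3 genes every 48 h value lay below every 0 h value, and the log2 changes were -4.44 ± 0.43 (SE, adjusted p = 3.6e-10), -3.54 ± 0.45 (SE, adjusted p = 7.2e-08) and -2.39 ± 0.35 (SE, adjusted p = 1.2e-06). The homeobox factors PROX1 and ONECUT1 changed by -2.91 ± 0.53 and -2.50 ± 0.55. FOXA2, a pioneer factor of liver, went from 730.3 ± 145 to 481 ± 34.5 (SD, n = 3), and its change of -0.57 ± 0.23 (SE, adjusted p = 0.047) did not reach 2-fold.

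Of 19 glucocorticoid response genes 8 fell and 1 rose (median -0.94). Most of the largest falls were also liver enzymes, such as PCK1, TDO2, which opens the tryptophan ring (-3.16 ± 0.25), and the tyrosine aminotransferase TAT (-3.02 ± 0.40, _x_at probe set). PIK3R1, the regulatory subunit of PI3-kinase, changed by -1.94 ± 0.17, with -2.06 and -1.92 by its other probe sets. The member that rose was ANGPTL4, an inhibitor of lipoprotein lipase (1.59 ± 0.19). Of 15 circadian clock genes 5 fell and 2 rose (median -0.52), but 3 fell with median centring, and without 0 h replicate 2 the median was -0.90. CLOCK, the partner of BMAL1, went from 398 ± 89.4 to 104 ± 22.6, RORA, read by an _x_at probe set, from 435 ± 79.3 to 125 ± 38.1, and CRY1, a clock repressor, from 123 ± 29.4 to 406 ± 45.8 (SD, n = 3). CSNK1E, a kinase that marks PER proteins for breakdown, rose with a log2 change of 2.04 ± 0.36. PER3 fell by 1.47 with an adjusted p of 0.029, a call lost in 8 of 18 other settings.

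Genes of mitosis had the highest median of the 43 lists. Of 62 measured G2/M and mitosis genes 55 rose (88.7%) and none fell, with a median log2 change of 2.14, against 9.82% of all genes. CCNB1, cyclin B1, which drives entry into mitosis, had signals of 164, 134 and 156 on the 0 h arrays and 4484, 4604 and 4421 on the 48 h arrays. CDC20, which activates the anaphase-promoting complex, had signals of 152, 227 and 221 on the 0 h arrays and 3443, 3422 and 3139 on the 48 h arrays. BIRC5, the survivin subunit of the chromosomal passenger complex, had signals of 151, 225 and 212 on the 0 h arrays and 2723, 2299 and 1956 on the 48 h arrays. None of these groups overlapped, and the log2 changes were 4.74 ± 0.17 (SE, adjusted p = 4.4e-21), 3.96 ± 0.20 (SE, adjusted p = 1.8e-17) and 3.46 ± 0.24 (SE, adjusted p = 9.6e-14). NCAPH, a condensin subunit, was dim at 0 h and went from 16.2 ± 13.8 to 338 ± 23.3 (SD, n = 3). CDK1, the kinase partner of cyclin B, changed by 2.64 ± 0.21 with 2.31 and 2.20 by its other probe sets, and TOP2A, which untangles sister chromatids, by 1.99 ± 0.25. MKI67, the proliferation antigen Ki-67, rose by 1.16 ± 0.25, but by 0.75, 1.27 and 0.62 on its other probe sets, and its call was lost without 0 h replicate 2 (0.96), with the larger pseudocount (0.98) and with the mean of its probe sets (0.95). The 7 members without a call included UBE2C (-0.32), KIF15 (-0.01) and LMNB1 (0.40), which were chosen after their values were seen. Without 0 h replicate 2, 54 G2/M genes rose.

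Promoters of the mitotic genes are shown because these genes shared letters that the gene list did not use. The sequence TTTGAA is known as the cell cycle genes homology region, or CHR, to which the MuvB complexes bind, and CCAAT is the box bound by NF-Y. TTTGAA, on either strand, was found in 34 of 50 G2/M promoters (68.0%) against 10.2% of all genes tested, 16.3% of the genes that rose and 10.5% of those that fell. CCAAT was found in 38 of the 50 (76%), against 37.4% of all genes tested. Over all 27305 promoters TTTGAA was in 15.4%, CCAAT in 35.7% and both in 6.08%. Both stood in 29 of the 50 (58.0%), in 4.30% of all genes tested and in 6.67% of the G1/S list. The 29 genes with both had 27 calls and a median log2 change of 2.04, and the 21 without both had 18 calls and a median of 2.14. The difference between these medians was not tested. The stretches printed are chr1:43358861-43358980 on the plus strand for CDC20, chr10:60778151-60778230 on the plus strand for CDK1 and chr17:40417897-40418146 on the minus strand for TOP2A, and capitals mark the CHR and the CCAAT box on either strand.
CDC20: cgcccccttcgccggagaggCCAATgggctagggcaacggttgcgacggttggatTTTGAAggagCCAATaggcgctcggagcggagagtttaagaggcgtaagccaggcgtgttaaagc
CDK1: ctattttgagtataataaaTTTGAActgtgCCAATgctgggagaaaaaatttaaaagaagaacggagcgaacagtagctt
TOP2A: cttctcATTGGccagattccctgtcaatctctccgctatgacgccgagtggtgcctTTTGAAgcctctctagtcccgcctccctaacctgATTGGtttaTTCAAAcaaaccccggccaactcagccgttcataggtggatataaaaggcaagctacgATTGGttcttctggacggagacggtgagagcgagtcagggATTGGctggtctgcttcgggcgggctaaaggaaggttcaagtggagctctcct
In CDC20 CHR letters begin at -65, between CCAAT letters at -100 and -55. In CDK1 CHR letters begin at -161 and CCAAT letters at -150. TOP2A has CCAAT letters at 4 places, -244, -160, -93 and -53, and CHR letters at -194 and -151. These too are matches of letters, which do not show that a factor binds there.

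**Figure D3:**
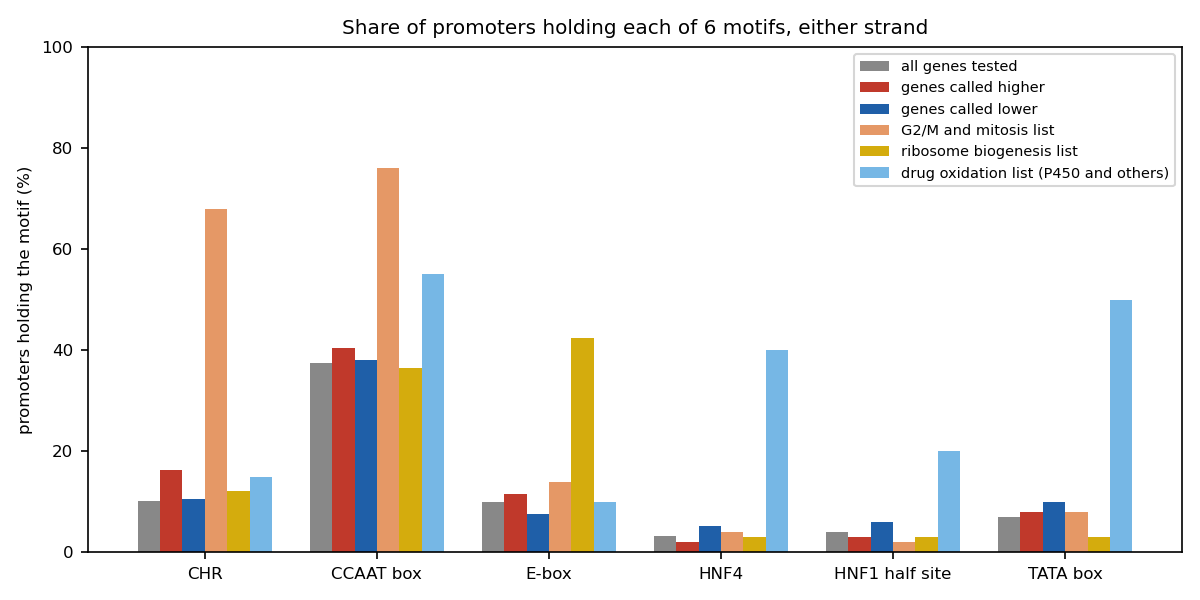
Percent of RefSeq promoters, 300 bases each, that hold each of 6 motifs on either strand (vertical axis), for all genes tested with a promoter (8116), those called higher (814) or lower (949) and 3 gene lists (50, 33 and 20 promoters). The CHR stands in 68.0% of the G2/M promoters, the E-box in 42.4% of the ribosome biogenesis promoters and the HNF4 letters in 40% of the drug oxidation promoters.

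Genes of G1/S and DNA replication rose as well. Of 53 measured 27 rose and 1 fell (median 1.02), and 26 rose without 0 h replicate 2. GINS1, a subunit of the replicative helicase complex, had signals of 358, 410.5 and 312 on the 0 h arrays and 1967, 1651 and 1240.0 on the 48 h arrays. The groups did not overlap (log2 change 2.10 ± 0.19 (SE, adjusted p = 5.2e-11)). The kinase CDK4 went from 748 ± 207 to 2648 ± 128, the DNA polymerase alpha subunit POLA2 from 83 ± 44.4 to 315 ± 70.8, and the ribonucleotide reductase subunit RRM1 from 982 ± 215 to 3176 ± 167 (SD, n = 3). MCM2, of the replicative helicase, rose by 1.53 ± 0.22 on the log2 scale. CCND1, cyclin D1, went from 246 ± 55.6 to 485 ± 36, and its change of 0.95 ± 0.17 (SE, adjusted p = 3.5e-05) was just under 2-fold, while its other probe set gave 1.40. It passed 2-fold in 5 other settings, among them median centring (1.21) and without 0 h replicate 2 (1.09). The member that fell was CDK6, the relative of CDK4, which went from 148 ± 31.9 to 25.4 ± 14.7 (SD, n = 3; log2 change -1.97 ± 0.46 (SE, adjusted p = 0.00071)). CDK4 and CDK6 thus moved in opposite directions, with no overlap between the groups in either gene.

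Of 24 CDK inhibitors and p53 target genes 10 rose and none fell (median 0.52), and 10 without 0 h replicate 2, but 1 fell without 0 h replicate 3. PLK2, a kinase induced by p53, went from 653 ± 233 to 2445 ± 82.2, TIGAR, which dampens glycolysis, from 421 ± 66.8 to 1567 ± 144, and PMAIP1, the apoptosis gene NOXA, from 379 ± 124 to 1174 ± 279 (SD, n = 3). CDKN2A, which encodes p16 and p14ARF, rose by 1.73 ± 0.16, but from an _x_at probe set, while its other set gave 0.94. CDKN1A, the p21 inhibitor, had signals of 2994, 3111 and 2546 on the 0 h arrays and 3896, 3959.7 and 3619 on the 48 h arrays, higher on all 48 h arrays, and its change of 0.41 ± 0.13 (SE, adjusted p = 0.014) was under 2-fold.

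Ribosome assembly and protein folding genes rose while ribosomal proteins stayed under the threshold. Of 39 ribosome biogenesis genes 17 rose (43.6%) and none fell (median 0.89). FBL, the methyltransferase of nucleolar RNA, had signals of 1846, 1715 and 1465 on the 0 h arrays and 5822, 5178 and 5519.9 on the 48 h arrays, a log2 change of 1.71 ± 0.12 (SE, adjusted p = 2.6e-13). NPM3, a nucleoplasmin relative, went from 218 ± 18.8 to 788 ± 81.4 and NIP7, a factor of the large subunit, from 198 ± 77.2 to 689.9 ± 189.5 (SD, n = 3). NOP2, an rRNA methyltransferase, rose by 1.65 ± 0.34, and by 0.99 without 0 h replicate 2, which ended its call. Without that array 14 of these genes rose, and with median centring 25 did. The E-box CACGTG, bound by MYC and other factors, stood in 14 of 33 of their promoters (42.4%), against 9.93% of all genes tested and 7.43% of all 27305 promoters. The 14 genes with the E-box had 7 rises and a median log2 change of 1.05. The 19 without it had 8 rises and a median of 0.88, a difference that was not tested. MYC itself had signals of 3073, 2361 and 1249 on the 0 h arrays and 1954, 1799 and 1512 on the 48 h arrays, with overlapping groups and a log2 change of -0.26 ± 0.21 (SE, adjusted p = 0.37), which was not called and turned positive with median centring (0.0054) and without 0 h replicate 1 (0.022).

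Of 31 proteasome subunits 6 rose and none fell (median 0.58), 12 with median centring. PSMB8, the immunoproteasome subunit LMP7, went from 656 ± 61.3 to 2111 ± 52, and the base and lid subunits PSMC3 and PSMD8 went from 1247 ± 222 to 3320.2 ± 494 and from 1909.6 ± 184 to 4269 ± 369 (SD, n = 3). PSME3, an activator subunit, rose by 1.34 ± 0.15 from an _x_at probe set and is uncertain, with -0.17, 0.04 and 1.66 by its other sets. Of 23 heat shock and cytosolic chaperone genes 11 rose and none fell (median 0.94). HSPB1, a small heat shock protein that also binds actin, had signals of 1707, 1034 and 1652 on the 0 h arrays and 17417, 15344 and 14058 on the 48 h arrays. All 48 h values were far above the 0 h values (log2 change 3.43 ± 0.16 (SE, adjusted p = 9.2e-18)). CCT5, of the chaperonin that folds actin and tubulin, went from 2468 ± 253 to 8616 ± 339.7 and the co-chaperone STIP1 from 593 ± 68.1 to 2053 ± 329.5 (SD, n = 3). HSF1, the heat shock transcription factor, rose by 2.12 ± 0.40, but its other probe set gave -0.25, so its direction is uncertain.

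Genes in the list of the actin cytoskeleton and its anchors rose, led by a calcium-binding protein. That list also holds S100 genes and the annexin ANXA3, which belong to other protein families. Of 56 measured 26 rose (46.4%) and none fell (median 0.91), and 24 rose without 0 h replicate 2, but 1 fell without 48 h replicate 1 or 3. S100A2, a calcium-binding protein of basal epithelial cells, had signals of 216, 226 and 206 on the 0 h arrays and 45783, 42503 and 52291 on the 48 h arrays. This was the largest rise of all genes, 7.64 ± 0.14 (SE, adjusted p = 1.9e-28), with little spread at either time. ANXA3, an annexin that binds membrane phospholipid, had signals of 64.7, 89.7 and 18.2 on the 0 h arrays and 1387, 1390.4 and 1111 on the 48 h arrays, and TPM4, a tropomyosin of stress fibres, 201, 77.3 and 116 on the 0 h arrays and 2026, 2102 and 1655 on the 48 h arrays. Both were higher on every 48 h array, with log2 changes of 4.25 ± 0.23 and 3.78 ± 0.20. S100A11, another S100 protein, went from 372 ± 148 to 3569 ± 624 (SD, n = 3). Outside this list, LGALS1, the secreted lectin galectin-1, had signals of 128, 164 and 231 on the 0 h arrays and 13888, 12361 and 14955 on the 48 h arrays, a log2 change of 6.19 ± 0.19 (SE, adjusted p = 2.8e-22). The promoter of S100A2 is shown for its AP-1 letters, TGACTCA, in capitals at chr1:153565845-153565944 on the minus strand.
S100A2: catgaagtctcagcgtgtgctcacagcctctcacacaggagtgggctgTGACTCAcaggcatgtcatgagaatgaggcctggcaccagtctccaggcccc
TGACTCA stood in 3.30% of the promoters of all genes tested, in 5.28% of those that rose, in 3.48% of those that fell and in 13.5% of the cytoskeleton list, against 4.92% of all 27305 promoters.

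**Figure D4:**
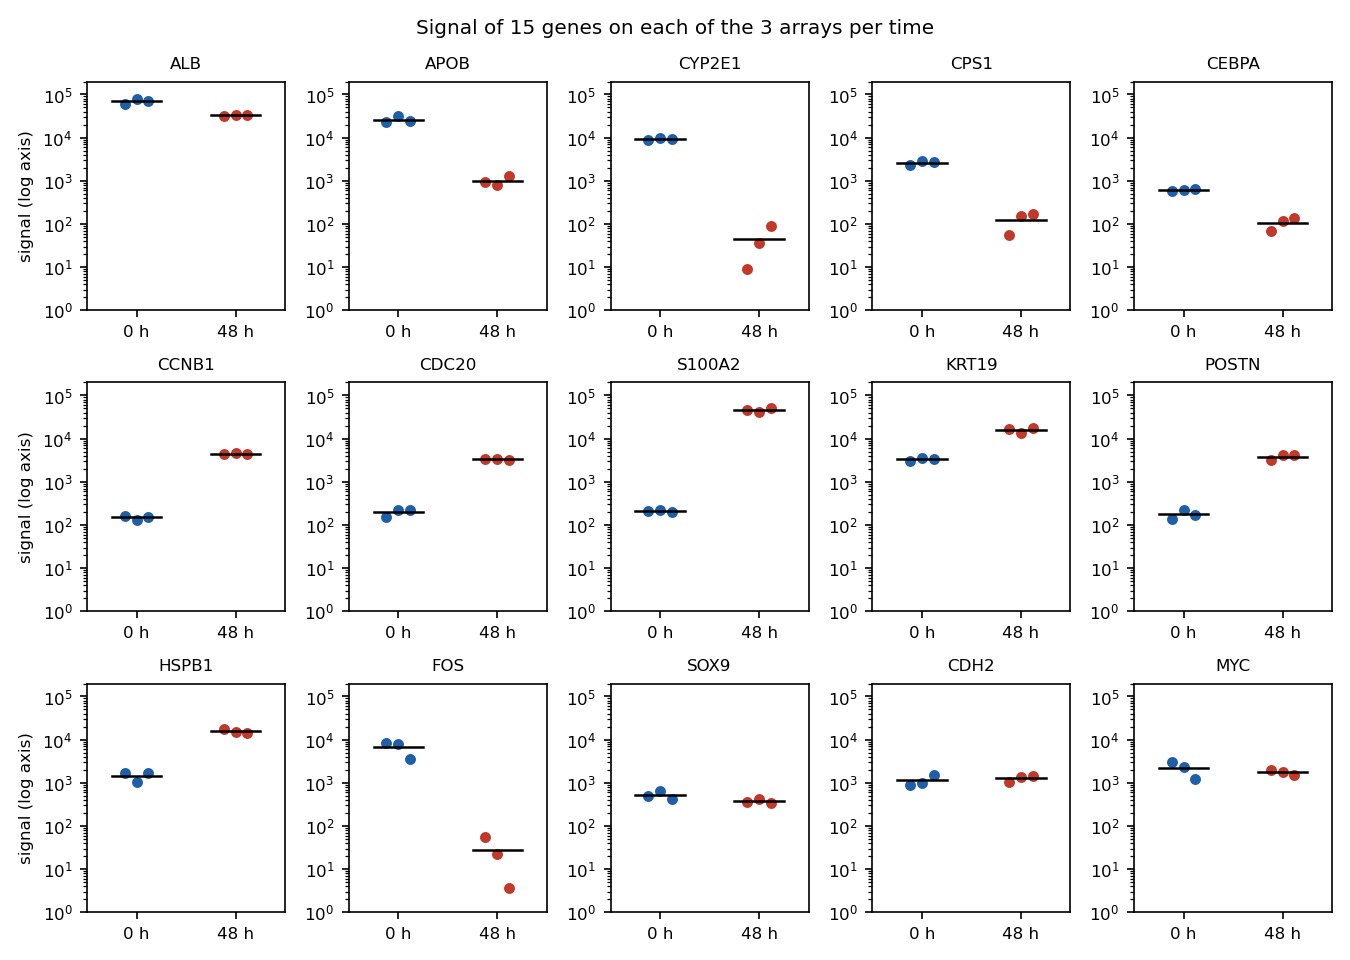
Signal of 15 genes on each array (points, log axis), 3 arrays at 0 h (blue) and 3 at 48 h (red), with black lines at the group means. The groups do not overlap for the 12 called genes from ALB to FOS, and they overlap for SOX9, CDH2 and MYC, which were not called.

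Of 25 YAP/TEAD and SRF target genes 12 rose and none fell (median 0.97), and 15 without 0 h replicate 2, but 1 fell without 0 h replicate 3. These factors respond to cell spreading and actin tension. TGFB2, a TGF-beta ligand, had signals of 2.09, 58.4 and 1.99 on the 0 h arrays and 549, 639 and 520.4 on the 48 h arrays, a log2 change of 4.22 ± 0.32 (SE, adjusted p = 1.3e-12), while its other probe sets gave 1.35, 0.17 and 1.01. FHL2, a LIM protein of focal adhesions, went from 346 ± 61.2 to 3749 ± 379 and the receptor kinase AXL from 194 ± 95.2 to 1521 ± 261 (SD, n = 3). The classical targets CCN1 and CCN2, matricellular proteins, were not called. CCN2 had signals of 4451, 3459 and 1956 on the 0 h arrays and 2370.0, 2888 and 3613 on the 48 h arrays, with overlapping groups and a change of -0.09 ± 0.19, which was 0.17 with median centring, 0.16 without 0 h replicate 1 and 0.054 without 48 h replicate 1. CCN1 had a log2 change of 0.37 ± 0.16 (SE, adjusted p = 0.071).

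Mesenchymal and matrix genes moved in both directions. The list of mesenchymal and EMT genes also holds the epithelial genes CDH1 and OCLN. Of its 34 measured members 9 rose and 3 fell (median 0.38, 0.23 without 0 h replicate 1 or 2). The members that fell were FN1, LOXL2 and CDH1, E-cadherin, whose fall is that of an epithelial gene. POSTN, periostin, a matrix protein of healing tissue, had signals of 137, 224 and 167 on the 0 h arrays and 3212, 4084 and 4091 on the 48 h arrays, a log2 change of 4.31 ± 0.17 (SE, adjusted p = 3.8e-20). S100A4 went from 71.5 ± 50.5 to 523 ± 95.2 and TNC, the matrix protein tenascin-C, from 182 ± 88.8 to 974 ± 118 (SD, n = 3). FN1, fibronectin, fell in signal from 24252 ± 1599 to 8261 ± 1605 (SD, n = 3) on an _x_at probe set, and its other sets gave -1.67, -1.39, -1.14, 0.44 and -1.54. The zinc-finger repressor SNAI2 went from 1216 ± 262 to 2029 ± 491 with a change of 0.72 ± 0.18 (SE, adjusted p = 0.0014), under 2-fold. CDH2, N-cadherin, had signals of 905, 992 and 1518 on the 0 h arrays and 1072, 1357 and 1429 on the 48 h arrays, with overlapping groups and a change of 0.20 ± 0.22 (SE, adjusted p = 0.51). VIM, vimentin, was dim on its tested probe set at both times, 43, 6.45 and 65.5 on the 0 h arrays and 63.1, 74.5 and 65 on the 48 h arrays, and was not called. Of 49 extracellular matrix genes 8 rose (16.3%) and 5 fell (10.2%), against 9.82% and 11.7% of all genes, with 5 rises under the larger pseudocount. Their median was 0.30, 0.14 without 0 h replicate 2 and 0.13 without 0 h replicate 3 or 48 h replicate 3. SERPINH1, the collagen chaperone HSP47, had signals of 14.4, 16 and 18.2 on the 0 h arrays and 747, 782 and 442 on the 48 h arrays, a change of 4.26 ± 0.26. THBS1, thrombospondin-1, rose by 2.60 ± 0.20, with 1.02, 2.12 and -0.38 by its other probe sets, and PLOD2, which modifies collagen lysines, by 1.90 ± 0.17. COL18A1, a basement membrane collagen, changed by -1.93 ± 0.20 and COL7A1, of anchoring fibrils, by -1.95 ± 0.48. LOXL2, which crosslinks collagen, had a log2 change of -1.92 ± 0.54. Its call was lost with the larger pseudocount (-0.99) and with the mean of its probe sets (-1.17). Markers of stellate cells and fibroblasts moved in both directions beside these genes. The summed signal of 9 measured markers ran from 1919 to 2454 at 0 h and from 3872 to 5071 at 48 h, and 3 rose and 1 fell, with a median log2 change of 0.05, -0.14 without 0 h replicate 2 and 0.51 without 48 h replicate 1. DCN, decorin on an _x_at probe set, LUM, lumican, and ACTA2, smooth muscle actin, rose by 1.34 ± 0.19, 2.08 ± 0.26 and 1.17 ± 0.15. ACTA2 alone went from 1157 ± 208 to 2611 ± 358 (SD, n = 3), which made up much of the difference in the sum. Its other probe set gave -1.14 and the mean of its probe sets 0.01, so its direction is uncertain. The member that fell was RELN, reelin, from 109 ± 7.23 to 24.7 ± 25.5 (SD, n = 3). Its call was lost in 3 of 18 other settings, with the larger pseudocount (-0.92), quantile normalization (-1.42) and without 48 h replicate 2 (-1.35). The part of these stellate cell and fibroblast markers in the rise of matrix and mesenchymal genes was not tested.

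Cell junction and keratin genes moved in both directions. Of 26 measured 7 rose and 4 fell (median -0.23, 0.03 with median centring, -0.07 without 0 h replicate 3 and -0.15 without 48 h replicate 3). GJB1, connexin 32, the main gap junction protein of hepatocytes, had signals of 1071, 938 and 1268 on the 0 h arrays and 138, 201 and 266 on the 48 h arrays. GJA1, connexin 43, which is common in other cell types, had signals of 655, 559 and 727 on the 0 h arrays and 3742, 3888 and 2817 on the 48 h arrays. The groups overlapped in neither gene, and the log2 changes ran in opposite directions, -2.37 ± 0.24 (SE, adjusted p = 6.5e-10) and 2.39 ± 0.16 (SE, adjusted p = 5.1e-14). CDH1, E-cadherin, had signals of 979, 1006 and 1007 on the 0 h arrays and 272, 481 and 623 on the 48 h arrays and a change of -1.17 ± 0.25 (SE, adjusted p = 0.00031), a call lost with median centring (-0.91), with the mean of its probe sets (-0.97) and without 48 h replicate 1 (-0.84). KRT8 and KRT18, the keratins of simple epithelia, rose by 2.08 ± 0.16 and 1.60 ± 0.13, both on _x_at probe sets, and CLDN14, a claudin of tight junctions, changed by -2.83 ± 0.56. KRT20, a keratin of gut epithelium, was dim at both times and its call, -1.02 ± 0.39 (SE, adjusted p = 0.038), was lost in 10 of 18 other settings, among them without 0 h replicate 2 (-0.98) and 3 (-0.96) and without 48 h replicate 2 (-0.55).

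Markers of biliary cells moved in both directions, while progenitor genes rose in part. Of 13 cholangiocyte markers 3 rose and 1 fell (median 0.27, 0.53 with median centring), and 5 rose with median centring. That median rested on single arrays, at 0.69 and -0.02 without 0 h replicate 2 and 3, and 0.72 and 0.06 without 48 h replicate 2 and 3. A second fall was called without 0 h replicate 3 or 48 h replicate 1. KRT19, a keratin of bile ducts, had signals of 3102, 3500.1 and 3469 on the 0 h arrays and 16577, 13763 and 18096 on the 48 h arrays, far apart between the groups (log2 change 2.25 ± 0.15 (SE, adjusted p = 2.5e-14)). KRT7, another duct keratin, was dim at 36.2, 8.94 and 64.8 on the 0 h arrays and 114, 81.4 and 128 on the 48 h arrays, and its call, 1.33 ± 0.40 (SE, adjusted p = 0.0075), was lost without 0 h replicate 2 (0.89) and with the larger pseudocount (0.74). SLC4A2, an anion exchanger, rose by 1.34 ± 0.35, and by 0.97 without 0 h replicate 3, which ended its call. SOX9, a transcription factor of ducts and progenitors, had signals of 485, 641 and 426 on the 0 h arrays and 365, 427 and 344 on the 48 h arrays, with overlapping groups and an uncalled change of -0.42 ± 0.17 (SE, adjusted p = 0.055). SPP1, osteopontin, had a log2 change of 0.87 ± 0.20 (SE, adjusted p = 0.00070), under 2-fold, though 1.13 with median centring and 1.01 without 0 h replicate 3 were called. ONECUT2, a homeobox factor, was the member that fell (-2.21 ± 0.45). Of 5 measured defining cholangiocyte markers KRT19, SOX9 and SPP1 lay above the 60th percentile of every array at both times. Their signal was thus present in the 0 h samples, and which cells carried it cannot be told in bulk samples. Of these 5, KRT7 and KRT19 rose and SOX9, SPP1 and AQP1 were not called. Their summed signal ran from 4664 to 5233 at 0 h and from 16120.4 to 20381 at 48 h, and most of that difference was KRT19. Of 19 progenitor and stem cell genes 9 rose (47.4%, against 9.82% of all genes) and none fell. Their median was 0.36, 0.67 and 0.77 without 0 h replicate 1 and 3, and 0.58 without 48 h replicate 2. IGF2BP3, an oncofetal RNA-binding protein, had signals of 47, 73.5 and 53.6 on the 0 h arrays and 696, 843 and 504 on the 48 h arrays, a change of 3.18 ± 0.41 (SE, adjusted p = 8.6e-08), and its other probe sets gave 1.80 and 1.24. NES, the intermediate filament nestin, went from 42.7 ± 13.1 to 335 ± 64.6, SOX4, a factor of immature cells, from 476 ± 119.6 to 2260.0 ± 408, and HMGA1, a chromatin protein of embryonic cells, from 49.3 ± 48.1 to 253 ± 88.1 (SD, n = 3). CD44, a hyaluronan receptor, rose by 1.30 ± 0.16, and its other probe sets gave 0.96, 1.83, 2.04, 1.78 and 1.95.

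Signalling genes moved in both directions. Of 31 genes of TGF-beta, activin and BMP signalling 10 rose and 4 fell (median 0.44, 0.68 and 0.29 without 0 h replicate 1 and 2). Beside TGFB2, the follistatin relative FSTL3 went from 72.5 ± 46.6 to 313 ± 31.4, and ID3, an inhibitor of bHLH factors, from 408 ± 113 to 1993 ± 306 (SD, n = 3). Its relative ID2 went the other way, from 12953 ± 3925 to 3261 ± 196 (SD, n = 3), and INHBE, an activin chain of liver, changed by -2.62 ± 0.33. PMEPA1, a feedback inhibitor of the pathway, rose by 1.90 ± 0.38, and TGFBR3, the co-receptor betaglycan, changed by -1.56 ± 0.29. SKI, a repressor of SMAD proteins, changed by -1.11 ± 0.34, a call lost in 5 of 18 other settings. These included 0 h replicate 2 left out (-0.99), 48 h replicate 1 left out (-0.94) and median centring (-0.85). Of 23 Wnt and Notch genes 5 rose and 1 fell (median -0.49), and 3 rose without 0 h replicate 1. DKK1, a secreted Wnt antagonist, had signals of 492, 439.9 and 498 on the 0 h arrays and 4401, 7191 and 6558 on the 48 h arrays, a change of 3.59 ± 0.17 (SE, adjusted p = 1e-17). JAG1, a Notch ligand read by an _x_at probe set, rose by 2.71 ± 0.21. Of the Wnt receptors FZD2 rose by 1.93 ± 0.56, a call lost without 0 h replicate 1 (1.48), FZD6 rose by 1.37 ± 0.26, and FZD4 changed by -1.49 ± 0.35. Of 40 growth factors and receptors 9 rose and 8 fell (median -0.01, 0.26 with median centring). EREG, an EGF receptor ligand, had signals of 5.10, 128 and 7.38 on the 0 h arrays and 372, 505 and 349 on the 48 h arrays, a change of 3.25 ± 0.36 (SE, adjusted p = 6.2e-09), and 0 h replicate 2 was the brightest of its 0 h arrays. IGFBP7, which binds insulin-like growth factors, went from 1189 ± 266 to 5587 ± 642, and IGFBP6 and IGFBP3 rose by 2.46 ± 0.40 and 1.96 ± 0.16. IGF1 itself, read by an _x_at probe set, went from 380.3 ± 66.6 to 70.7 ± 41.8 (SD, n = 3). The receptor ERBB3 changed by -2.29 ± 0.24, with 0.21 by its other probe set, and the angiogenic factor VEGFA by -2.42 ± 0.23. KDR, a receptor of VEGFA on endothelium, changed by -2.15 ± 0.59.

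Among the immediate early genes more fell than rose, from a start at which several were bright. Of 37 measured 11 fell and 7 rose (median -0.37, -0.23 and -0.56 without 0 h replicate 2 and 3). FOS had signals of 8415, 7804 and 3629.8 on the 0 h arrays and 55.9, 22.9 and 3.76 on the 48 h arrays. Its change of -7.27 ± 0.43 (SE, adjusted p = 2.5e-15) was the second largest fall, and EGR1 (-3.18 ± 0.21), FOSB (-3.68 ± 0.45) and JUN (-3.52 ± 0.24, _x_at probe set) fell as well. These 4 genes encode transcription factors induced within minutes of stimulation. For each of them 0 h replicate 3 was the lowest 0 h array. The median SD of the 37 early genes between arrays was 0.66 at 0 h and 0.20 at 48 h on the log2 scale, against 0.29 and 0.25 for all genes. Early genes that rose included RRAD, a GTPase related to RAS, with signals of 8.51, 64.9 and 8.61 on the 0 h arrays and 815, 763 and 691 on the 48 h arrays (log2 change 4.31 ± 0.30 (SE, adjusted p = 1.7e-13)), MAFF, a small bZIP factor (2.22 ± 0.30, other probe set 0.74), and DUSP5, a phosphatase of ERK (1.98 ± 0.34). IER3, an early response gene that affects cell survival, rose by 1.62 ± 0.17.

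Of 32 cytokine, chemokine and NF-kappaB response genes 7 rose and 2 fell (median 0.02). IL18, a cytokine of the IL-1 family, had signals of 65.4, 84.5 and 85.5 on the 0 h arrays and 1277, 1695 and 1513 on the 48 h arrays, a change of 3.97 ± 0.19 (SE, adjusted p = 8.3e-18). CCL2, which attracts monocytes, had signals of 87.2, 68.7 and 26.2 on the 0 h arrays and 1019, 1058 and 916 on the 48 h arrays, a change of 3.78 ± 0.21 (SE, adjusted p = 7.1e-16). IL1RL1, the receptor of IL-33, rose by 3.19 ± 0.27 and PTX3, a soluble pattern receptor, by 2.62 ± 0.27. CXCL2, a neutrophil attractant on an _x_at probe set, went from 11016 ± 3277 to 869 ± 10.8 (SD, n = 3). CXCL8 was called lower on an _x_at probe set with overlapping groups (-1.13 ± 0.37), but its other probe set gave 0.29, so its direction is uncertain. Its call was also lost in 7 other settings, with -0.87 without 0 h replicate 1, -0.64 without 0 h replicate 2 and -0.90 without 48 h replicate 3. Of 36 interferon-stimulated and antigen presentation genes 6 rose and 1 fell (median 0.04), and 2 fell without 48 h replicate 1 or 3. Those that rose included the interferon-induced genes IFI27 (1.94 ± 0.22) and ISG15 (1.23 ± 0.16), PSMB8, and TAP1, which moves peptides into the ER (1.34 ± 0.18). The gene that fell was IFIT2, which encodes an RNA-binding protein (-1.73 ± 0.49).

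Stress and sugar-burning genes showed mixed changes. Of 27 glycolysis and hypoxia genes 4 rose (14.8%) and 5 fell (18.5%), against 9.82% and 11.7% of all genes. Their median was 0.27, and with median centring 7 rose and 3 fell. Without 0 h replicate 2 the median was 0.06, and without 48 h replicate 3 there were 3 falls. EGLN3, an oxygen-sensing hydroxylase, had signals of 101, 6.97 and 98.3 on the 0 h arrays and 763, 874 and 741 on the 48 h arrays, and the platelet isoform of phosphofructokinase, PFKP, 157, 84.5 and 170.0 on the 0 h arrays and 1678, 1315 and 1184 on the 48 h arrays. Both were higher on every 48 h array, with changes of 3.53 ± 0.34 and 3.22 ± 0.19. PKM, the pyruvate kinase of proliferating cells, rose by 1.33 ± 0.20, whereas ALDOC, an aldolase, changed by -1.77 ± 0.19 and NDRG1, a hypoxia target, by -1.57 ± 0.18. PFKFB3, which stimulates glycolysis, rose by 1.05 ± 0.18, a call lost without 0 h replicate 1 (0.97), without 48 h replicate 3 (0.91) and with the larger pseudocount (0.93). LDHB, a lactate dehydrogenase subunit on an _x_at probe set, changed by -1.11 ± 0.41, a call lost in 7 of 18 other settings, among them without 0 h replicate 2 (-0.98) and without 48 h replicate 3 (-0.61). Of 37 ER stress, amino acid response and tRNA synthetase genes 2 rose (5.41%) and 4 fell (10.8%), against 9.82% and 11.7% of all genes. Their median was -0.20, 0.07 with median centring and -0.09 without 0 h replicate 2. Without 48 h replicate 3 there were 7 falls, and with median centring 4 rises. PSAT1, an enzyme of serine synthesis, went from 287 ± 60.8 to 1082 ± 229.9 and the cystine importer SLC7A11 from 203 ± 108 to 656 ± 82.7, while the ER chaperones DNAJB9 and HYOU1 went from 3929 ± 278 to 1009 ± 182 and from 1843 ± 434 to 658 ± 105 (SD, n = 3). SEL1L, of ER-associated protein breakdown, changed by -1.43 ± 0.15, and by -0.70 with the mean of its probe sets. DDIT3, the stress factor CHOP, changed by -1.09 ± 0.26, a call lost in 4 of 18 other settings, among them without 48 h replicate 3 (-0.95) and with median centring (-0.83). Of 10 metallothionein and zinc transport genes none rose. The single fall, 10% against 11.7% of all genes, was the zinc importer SLC39A14 (-1.65 ± 0.16). MT1X, a metallothionein read by an _x_at probe set, had a log2 change of -0.30 ± 0.13 (SE, adjusted p = 0.072) and was not called.

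Few markers of other liver cell types were bright. Of 9 measured endothelial markers none lay above the 60th percentile on all 3 arrays at either time, and their summed signal ran from 948 to 1079 at 0 h and from 374 to 379.8 at 48 h. Of 9 macrophage markers 2 lay above it at 0 h and none at 48 h, with sums from 1094 to 1544 at 0 h and from 499 to 563 at 48 h. Of 11 lymphocyte markers none lay above it at either time, with sums from 708 to 1205 at 0 h and from 485 to 665 at 48 h. Falls were called for 2, 2 and 2 members of these lists (22.2%, 22.2% and 18.2%), against 11.7% of all genes. The calls were unstable, with 0 lymphocyte calls without 0 h replicate 2 or 3 and 1 macrophage call without 48 h replicate 1. Without 0 h replicate 1 or 48 h replicate 2 or 3 there was 1 endothelial call. The endothelial receptors KDR and LYVE1 had log2 changes of -2.15 ± 0.59 and -1.68 ± 0.67, and LYVE1 lost its call in 10 of 18 other settings, among them without 0 h replicate 1 (-1.38) and 2 (-1.29) and without 48 h replicate 2 (-1.51) and 3 (-1.46). The macrophage scavenger receptors MRC1 and CD163, the latter on an _x_at probe set, had -2.21 ± 0.45 and -1.63 ± 0.58. CD163 lost its call in 5 of 18 other settings, among them without 0 h replicate 3 (-1.49) and without 48 h replicate 1 (-1.27). The lymphocyte genes CD3E, of the T cell receptor complex, and GZMB, a cytotoxic protease, had -1.41 ± 0.52 and -1.79 ± 0.60. Their calls were lost in 7 and 4 of 18 other settings, among them without 0 h replicate 2 (-1.24 and -1.61).

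Genes reached their 48 h level at different times on the way. CYP2E1 declined from 4 h onwards, from 9348 ± 604 at 0 h through 3449 ± 6.86 at 12 h and 609.6 ± 71.7 at 24 h to 45.5 ± 42.5 at 48 h (SD, n = 3). CEBPA was already at 60.3 ± 27.9 at 4 h and had 108 ± 34.4 at 48 h. PCK1 first went up, to 2954 ± 503 at 1 h, and was at 19 ± 22.4 by 8 h. S100A2 was at 24743 ± 3741 by 4 h and varied little after 8 h, whereas LGALS1 was still at 6173 ± 2012 at 24 h, AGR2, a secretory pathway protein of mucous epithelia, at 349 ± 91.3, and both were higher again at 48 h, at 13735 ± 1304 and 1850.5 ± 554. CCNB1 had means of 695 ± 104 at 16 h, 2275 ± 253 at 24 h and 4503 ± 93.1 at the end. GINS1 was higher at 24 h than at 48 h, 2436 ± 61.6 against 1619.5 ± 365, and VEGFA had a higher mean at 8 h, 1721 ± 14, than at 0 h. SOX9, uncalled at the end, had 2619 ± 368 at 1 h. CCL2 had 4036 ± 914 at 1 h and was lower at 48 h, at 998 ± 73.2. These means are descriptions with no test.

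**Figure D5:**
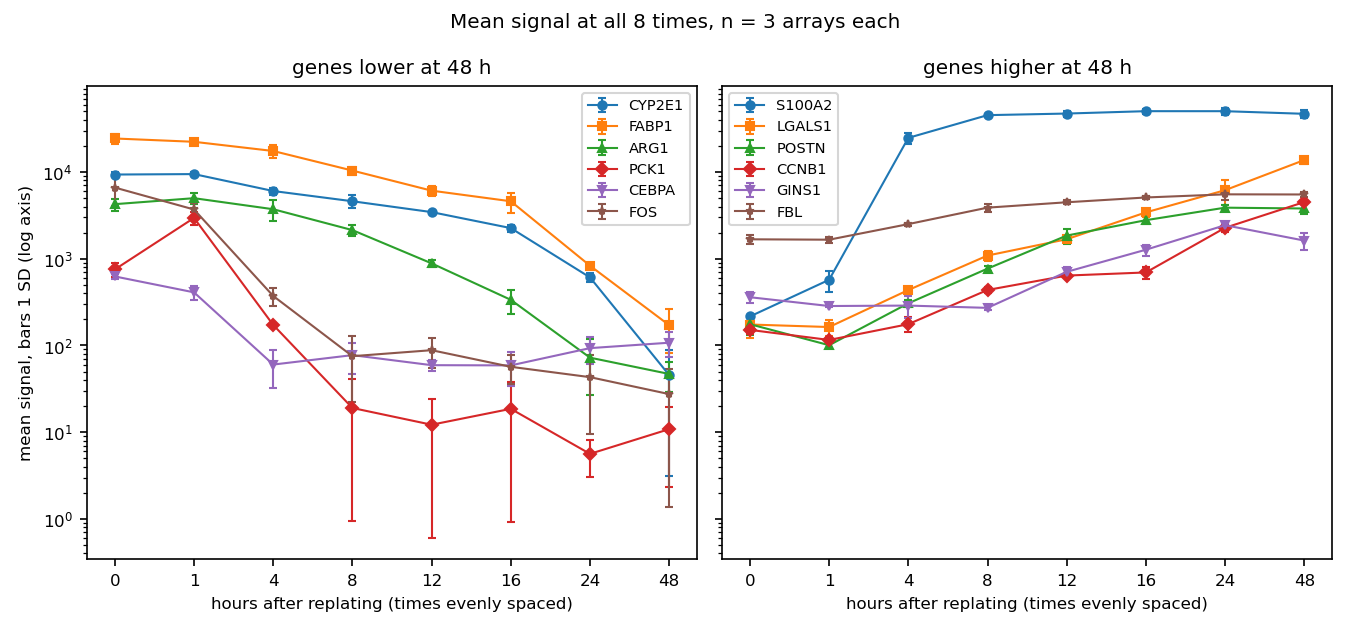
Mean signal (log axis, n = 3 arrays per time) of 6 genes lower at 48 h (left) and 6 genes higher at 48 h (right) at all 8 times, drawn evenly spaced. Bars are 1 SD, with the lower bar cut short where the SD nears or exceeds the mean. CEBPA and PCK1 were near their 48 h level by 8 h, while CYP2E1, FABP1 and ARG1 declined at each time from 4 h on. S100A2 levelled off by 8 h, and LGALS1 and CCNB1 were highest at 48 h.

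Some genes passed from dim to bright or back. Among called genes, 26 lay under the 40th percentile of every 0 h array and above the 60th percentile of every 48 h array, and 25 went the other way. AGR2 led the first set, with signals of 4.78, 9.07 and 8.34 on the 0 h arrays and 1212, 2124 and 2215 on the 48 h arrays, and ADGRG1, an adhesion receptor, had 57.3, 70.5 and 14.4 on the 0 h arrays and 695, 810.5 and 822 on the 48 h arrays. GPRC5A, a receptor induced by retinoic acid, rose by 4.17 ± 0.30. EMP3, a membrane protein, and GLIPR1, a CAP family protein, were also among the 15 largest rises, with log2 changes of 4.08 ± 0.41 and 4.29 ± 0.15. Agreement between probe sets was checked where a gene had more than its representative. Of 751 called genes with another tested probe set, 678 had at least 1 of the same sign and 452 at least 1 with a 2-fold change the same way, and 27 had 1 with a 2-fold change the opposite way.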

How the data were processed

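Affymetrix human expression arrays of HepaRG cells, 3 per time at 8 times, were analysed from their deposited values. The authors deposited linear MAS5 signal intensities, scaled to a common trimmed mean of about 500.2 per array, per the submitters' processing notes (MAS5) and the values. Probe sets were named from the platform annotation given with the data, and 19065 of 22283 have 1 gene symbol, 1043 several and 2107 none, and 68 are controls. Values were tested as log2(signal + 18.04), the pseudocount being the 20th percentile of all values. A probe set was kept when at least 3 of the 24 arrays exceeded their own 40th percentile, which left 17122, and the brightest stood for its gene. Linear models in limma 3.58.1 (R 4.3.3) with a mean-variance trend took all 24 arrays, so that all times share a spread estimate, and were checked on simulated data. The 18 alternatives varied pseudocount, normalization, filter, probe set choice, trend, arrays fitted and each replicate left out in turn. The number of arrays limits the precision.

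The members and gene lists were chosen with earlier results of these data known. Named genes are a fixed list, the 15 largest called rises and falls without overlap, up to 4 called members of each list in each direction and the 4 brightest dim-to-bright genes. Promoters are from RefSeq (GRCh38.p14). Figures were drawn in matplotlib 3.10.9.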

Additional observations from a re-analysis of the deposited data

How the results depend on the processing

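Rises, falls and the percent of calls that were rises stayed within 1.5 times of 979, 1170 and 45.6% under 17 of 18 alternatives. Median centring gave 1504 rises, 777 falls and 65.9%, and moved the median of all genes from -0.12 to 0.14, as its construction implies. The larger pseudocount of 73.8 gave 756 rises and 818 falls, and 1573 of the 2149 calls were kept. Leaving out each replicate in turn gave 929 to 1002 rises, 1034 to 1168 falls and 45.2% to 48.2%. Of 202 called named genes 174 kept their call under every one of the 18 alternatives in which they were tested, and 28 lost it under at least 1. A gene that an alternative left without a tested probe set was not scored there. This also holds for the counts of 18 settings given for single genes. Without _x_at probe sets CXCL8 turned to 0.29. The uncalled changes of ABCB11 were 0.15 with quantile normalization, 0.13 with median centring and from -0.71 to 0.32 with each replicate left out in turn, above 0 without 0 h replicate 3 (0.32), 48 h replicate 1 (0.16) and 48 h replicate 3 (0.16). Those of CCN2 were 0.17 with median centring and from -0.43 to 0.16 with each replicate left out in turn, above 0 without 0 h replicate 1 (0.16) and 48 h replicate 1 (0.054). Those of MYC were 0.0054 with median centring and from -0.62 to 0.022 with each replicate left out in turn, above 0 without 0 h replicate 1. The cause was not tested in these cases. Probe sets near background have changes that depend on the pseudocount, and no detection limit was available beyond the percentile of the array.

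The labels do not say that replicate numbers pair the samples, so the numbers were not taken as pairs. Same-numbered replicates did not deviate together, with correlations of -0.00098, 0.0015 and -0.021 between 0 h and 48 h arrays. With the replicate number as a block, 979 genes rose and 1167 fell, and 2136 of the 2149 calls were kept. On the 6 arrays alone the replicate block gave 962 and 1173.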
